A study of Homo sapiens with 9 samples.

Results

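The phosphatidylinositol 3-kinase-like kinases (PIKKs) are a family of very large proteins, and the members examined here were the 6 genes that encode them, PRKDC, ATM, ATR, MTOR, SMG1 and TRRAP. Their members in the data were the binding sites of the splicing factor SF3B1 whose centre lay within the RefSeq span of one of these genes and on the strand of that gene. There were 406 such sites among 96852 in the whole list, or 0.419%. The genes were taken as a whole family and not by a cut on their number of sites. They were, however, chosen with earlier results of these data known.

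PIKKs resemble lipid kinases in their catalytic domain but phosphorylate proteins on serine and threonine. PRKDC encodes the catalytic subunit of DNA-PK, which acts in the joining of broken DNA ends. ATM responds to double-strand breaks and ATR to stalled replication forks. MTOR is the kinase of both mTOR complexes, which couple nutrients and growth factors to cell growth. SMG1 phosphorylates UPF1 in nonsense-mediated decay. TRRAP has lost kinase activity and is a scaffold of histone acetyltransferase complexes. All are encoded by long genes with many introns, and nearly every intron has to be recognised by the U2 small nuclear ribonucleoprotein (snRNP), of which SF3B1 is a subunit. SF3B1 contacts the RNA around the branch point, shortly before an intron ends.

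The series used iCLIP, in which ultraviolet light links a protein to the RNA it touches, the protein is pulled down with an antibody, and sequencing locates the linked nucleotides. The cells were K562, an established human leukaemia line that is widely known as a chronic myeloid leukaemia line, although the labels give its tissue as lymphoid. SF3B1 was pulled down in 3 libraries from cells with unmutated SF3B1 (genotype SF3B1 wt/wt) and in 2 libraries from cells of genotype SF3B1 K700E/wt, and U2AF2, a second splicing factor, in 4 libraries from SF3B1 wt/wt cells of another supplier. All cells were crosslinked at 400 mJ/cm2 and 254 nm and received no other treatment. The labels do not say whether the K700E line was 1 clone.

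A single merged list of sites was analysed, which is tied by the labels to the 3 libraries of SF3B1 from unmutated cells. Its header speaks of sites reproduced by all replicates of either condition, so no site is assigned to a genotype here. The list has no read number and no value per replicate, so depth is unknown, no spread between replicates can be given, and no test between conditions was possible. Tables for the 6 other libraries were not analysed here. Every site was 5 nt wide. RNA abundance was not measured, so a gene with more sites cannot be told apart from a gene with more RNA. Intervals below are 95% Wilson intervals, which cover counting error only and treat sites as independent, although sites of one gene share its RNA.

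All 6 PIKK genes carried SF3B1 sites. Their numbers ran from 27 to 184, a 6.81-fold range, while their lengths differed only 1.54-fold. Among all 20056 protein-coding genes, 37.9% had at least 1 site on their strand and 23.1% had at least 5. The strand was known independently of the sites for 15843 of these genes. For the others the strand with more sites was taken, so their sites could lie on either strand. Among the 2684 protein-coding genes at least as long as SMG1, the shortest member, 40.1% had at least 1 site. The median over the 6 genes was 43.5 sites, against 7 (quartiles 3 and 15) over the 7608 protein-coding genes with a site, and 9 (quartiles 3 and 22) over the 1077 of these that were at least as long as SMG1. No site lay on the opposite strand within any of the 6 spans. Only in ATM, ATR, MTOR and SMG1 was the strand known independently of the sites, and beside the 170 sites of these 4 genes a count of 0 allows a share of up to 1.76%, taken as 3 counts over the total.

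PRKDC had the most sites, 184, which was 45.3% of those in the family. The gene spans 187.0 kb of chromosome 8 (GRCh38, 47773111 to 47960136, minus strand) and carried 0.984 sites per kb. Only 4 protein-coding genes had more sites, since PRKDC ranked 5. SMG1, on the minus strand of chromosome 16 (18804860 to 18926408, 121.5 kb), followed with 77 sites or 0.633 per kb. Together these 2 genes, a DNA end-joining kinase and a kinase of nonsense-mediated decay, held 64.3% of the family's sites.

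TRRAP, on the plus strand of chromosome 7 (98878532 to 99013241, 134.7 kb), had 52 sites or 0.386 per kb. ATM, on the plus strand of chromosome 11 (108223067 to 108369102, 146.0 kb), had 35 sites or 0.24 per kb. ATR, on the minus strand of chromosome 3 (142449235 to 142578733, 129.5 kb), had 31 sites or 0.239 per kb. MTOR, on the minus strand of chromosome 1 (11106535 to 11262551, 156.0 kb), had 27 sites or 0.173 per kb. The densities of ATM and ATR, the 2 kinases that open the checkpoint response to damaged DNA, were thus nearly equal, and MTOR had the fewest sites although only PRKDC is longer. With no replicate values, the order of ATM, ATR and MTOR cannot be set against an experimental error.

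Among the 566 protein-coding genes with a site that were between 121.5 and 187.0 kb long, the lengths of the shortest and the longest member, the median density was 0.0741 sites per kb (quartiles 0.0239 and 0.174). MTOR, the lowest member, exceeded 74.6% of these genes in density, ATR 82.7%, ATM 82.9%, TRRAP 91.0%, SMG1 96.6% and PRKDC 99.5%. Over all protein-coding genes with a site, which are mostly shorter, the median was 0.199 per kb (quartiles 0.0706 and 0.51), and MTOR exceeded 46.2% of them, ATM and ATR 55.1% each, TRRAP 67.9%, SMG1 79.5% and PRKDC 87.7%. The density of MTOR thus lay just below the upper quartile of genes of the members' lengths and the other 5 densities lay above it, while MTOR, ATM and ATR lay near the middle of all genes with a site. That difference was not tested, and expressed genes were not separated from the others.

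**Figure D1:**
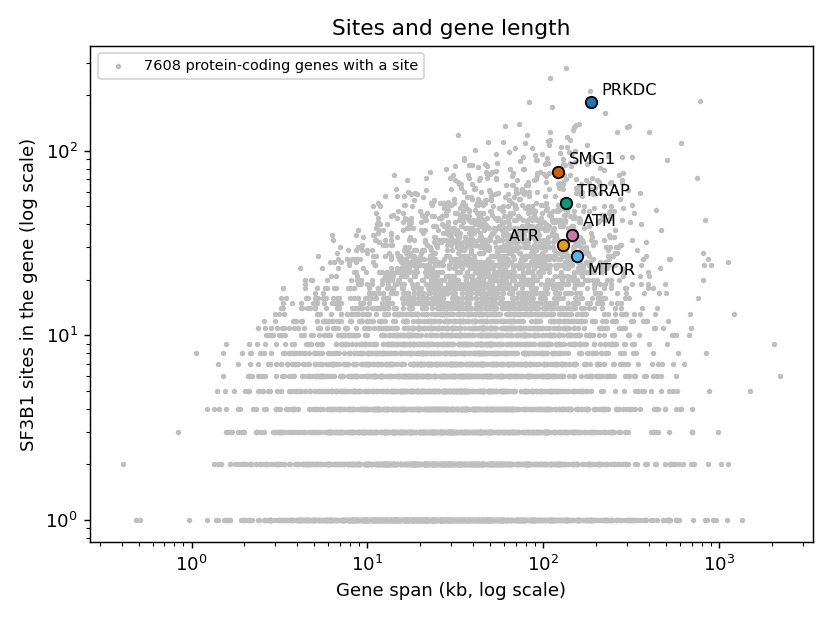
Number of SF3B1 sites (log scale) against gene span in kb (log scale) for 7608 protein-coding genes with a site (grey points, 1 per gene) and the 6 PIKK genes (coloured points). The members have similar lengths, from 121.5 to 187.0 kb, and spread vertically from 27 sites in MTOR to 184 in PRKDC.

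For each member, the protein-coding gene outside the family with the most similar length and number of sites was identified, as the smallest Euclidean distance in log2 length and log2 number of sites over genes with a site. PRKDC was nearest to STXBP5, with 210 sites in 186.1 kb, at a distance of 0.191. SMG1 was nearest to CHD2, with 77 sites in 127.7 kb. TRRAP was nearest to THOC2, with 52 sites in 132.5 kb. ATM was nearest to LPIN1 (34 sites, 149.9 kb), ATR to HK1 (30 sites, 131.9 kb) and MTOR to HERC4 (26 sites, 153.4 kb). The last 5 distances lay between 0.024 for TRRAP and 0.071 for SMG1, so PRKDC had the least close neighbour.

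The sites were unevenly placed along the genes, and the unevenness differed between members. TRRAP, ATM and PRKDC had most of their sites in the 5′ part, with the smallest excess in PRKDC, which depended partly on sites inside another annotated gene. SMG1 had nearly all of them in the 3′ part, and MTOR had more there than upstream. Distances below are counted from the annotated 5′ end of the gene in the direction of transcription. Positions were set against genomic span only, because exon and intron limits were not used. Whether stretches without sites or dense stretches follow the lengths of introns was therefore not tested.

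**Figure D2:**
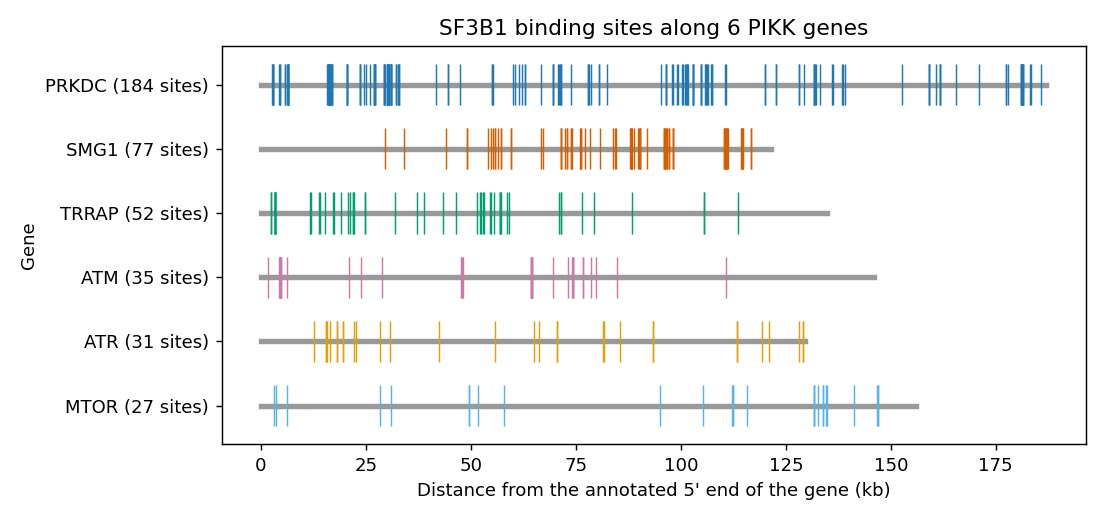
Position of each SF3B1 site (vertical line) along the 6 PIKK genes (grey bars, to scale), in kb from the annotated 5′ end, with the number of sites beside each gene name. The first site of SMG1 lies 29442 nt from the start, whereas the last site of ATM lies 35268 nt before the end.

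In PRKDC, 77 of 184 sites (41.8%) lay in the first 20% of the gene, at 2.06 sites per kb, against 0.481 to 1.04 per kb in the other 4 stretches of 20%. The first site was 2652 nt from the start, and 17 sites lay within the first 10 kb. A second concentration, of 39 sites, lay between 40% and 60% of the gene. The densest 5 kb held 25 sites and began 26.9 kb from the start (chromosome 8, 47929081 to 47933220). The longest stretches between neighbouring sites were 13.6 and 12.9 kb, or 7.26% and 6.88% of the gene. The last site lay 1276 nt before the annotated end.

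Within PRKDC, 19 sites lay inside LOC105375818, a long non-coding RNA gene of 3115 bp on chromosome 8 (47941426 to 47944540). The tables used give no strand for this gene, so it cannot be told apart whether these sites belong to PRKDC RNA or to the non-coding RNA. They lay between 47943174 and 47944400 and made up 10.3% of the sites of PRKDC. Without them PRKDC had 165 sites and rank 8, the first 10% of the gene held 17 sites in place of 36, and the share in the first 20% was 35.2% in place of 41.8%.

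In TRRAP, 24 of 52 sites (46.2%) lay in the first 20% of the gene and 1 in the last 20%. Only 9 sites lay in the last 50%, or 17.3% (95% Wilson interval 9.38% to 29.7%). The first site was 2496 nt from the start, the last one 21157 nt before the end, and the longest stretch between neighbours, 17.1 kb, began 88.4 kb from the start.

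The largest cluster of sites in the whole family, 6 sites within 94 nt, lay in the 5′ part of TRRAP (chromosome 7, 98881759 to 98881852). All 6 sites fell inside SCARNA28, a gene of 194 bp (98881697 to 98881890) for a small Cajal body RNA, one of a class that guides chemical modification of spliceosomal RNAs. MIR3609, an annotated miRNA gene that overlaps the start of SCARNA28, held no site. The tables give no strand for SCARNA28, and sites in TRRAP RNA cannot be told apart from sites in the small RNA. Without these sites TRRAP had 46 sites, its largest cluster had 3, and the share in the first 20% was 39.1%.

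In ATM, 34 of 35 sites lay in the first 60% of the gene. They formed separate groups, with 10 sites in the first 10% of the gene and 17 between 40% and 60%, and only 4 between 20% and 40%. The 10 sites of the first group lay close together (chromosome 11, 108224767 to 108229181), in what was also the densest 5 kb of the gene. The longest stretch between neighbours was 26.0 kb, or 17.8% of the gene, and began 84.8 kb from the start. No site lay in the last 35268 nt. The 1 site beyond 60% lay at 108333832 to 108333836 inside the span of C11orf65, a protein-coding gene on the minus strand that overlaps the 3′ part of ATM, while the site itself was on the plus strand. The last 50% of ATM held 31.4% of its sites (interval 18.6% to 48.0%).

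ATR was the member with the most balanced placement. Its last 50% held 16 of 31 sites, or 51.6% (interval 34.8% to 68.0%). The first site was 12623 nt from the start, 10 sites followed in the second 10% of the gene, and the last site lay 377 nt before the end. The longest stretch without a site was 20.1 kb. A single site (142450675 to 142450679) also fell within EIF2AK1P1, an annotated pseudogene inside ATR.

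MTOR had 18 of 27 sites in the last 50%, or 66.7% (interval 47.8% to 81.4%), and all 18 lay in the last 40%. The stretch from 40% to 60% of the gene held 0 sites. This was part of the longest stretch between neighbouring sites in the whole family, 37.2 kb or 23.8% of MTOR, from 57.8 to 95.0 kb. The densest 5 kb held 8 sites and began 131.7 kb from the start (chromosome 1, 11127822 to 11130842). A single site (11146843 to 11146847) on the minus strand fell in the span of MTOR-AS1, an antisense RNA gene on the plus strand. ANGPTL7, a protein-coding gene on the plus strand within MTOR, held no site of MTOR.

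SMG1 showed the opposite placement to TRRAP. The first 20% of the gene held 0 of 77 sites, which allows a share of up to 3.9% (3 counts over the total), and the first site lay 29442 nt from the start. The first 40% held 3 sites and the last 60% held 74. The last 50% contained 62 sites, or 80.5% (interval 70.3% to 87.8%), against 17.3% (9.38% to 29.7%) in TRRAP. The difference was not tested, and the intervals take no account of the clustering of sites. The densest part lay near the 3′ end, where 16 sites fell within 5 kb and 10 of them within 1 kb (chromosome 16, 18815291 to 18816239). The stretch from 60% to 80% carried 1.36 sites per kb, against 0.123 per kb between 20% and 40%.

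SMG1 has partial copies elsewhere on chromosome 16, annotated as pseudogenes, and reads from near-identical sequence can be assigned to the wrong copy or left out. Sites on either strand were counted in the copies, since the tables give them no strand. Of 7 copies in RefSeq, SMG1P3 held 5 sites, SMG1P7 3, SMG1P1 2 and SMG1P4 1. SMG1P2, SMG1P5 and SMG1P6 held 0. The copies span 315.2 kb in all, with 11 sites or 0.0349 per kb, and SMG1 had 87.5% of the 88 sites in the gene and its copies. Which part of SMG1 each copy matches was not examined, so whether shared sequence contributes to the scarcity of sites in the 5′ part of SMG1 was not tested.

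**Figure D3:**
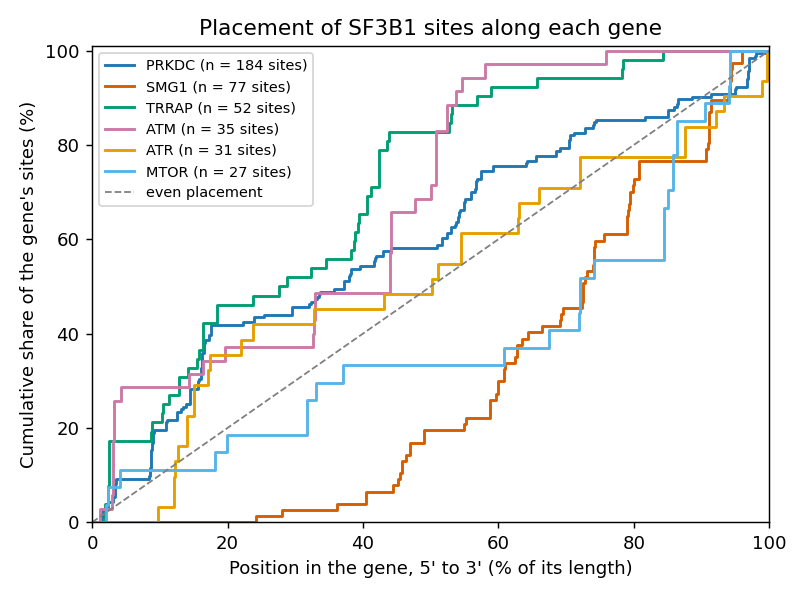
Cumulative share of each gene's SF3B1 sites (%) against position in the gene from the 5′ to the 3′ end (% of its length), with 1 stepped line per PIKK gene and a dashed line for even placement. The dashed line takes no account of the lengths of introns. By 60% of the gene, ATM has reached 34 of its 35 sites and TRRAP 48 of 52, whereas SMG1 has reached 23 of 77 and MTOR 9 of 27.

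Over the whole family, 193 of 406 sites lay in the last 50% of their gene, or 47.5% (interval 42.7% to 52.4%). The other 4624 protein-coding genes with at least 5 sites had 63.7% of 87415 sites there (63.3% to 64.0%). Those genes are of any length, and the position of sites in genes of the members' lengths was not examined. The family value rests on members that go in different directions. PRKDC, TRRAP and ATM had shares whose intervals lay below 50%, SMG1 had one above it, and those of ATR and MTOR included it. These intervals treat each site as independent, although sites form clusters, so they can be too narrow. Shares counted by cluster were not calculated, so the side of 50% is not settled for PRKDC and ATM. Without the sites inside LOC105375818, the share in PRKDC was 46.7% (39.2% to 54.3%), which includes 50%. Leaving out SMG1 lowered the family share to 39.8%, and leaving out PRKDC raised it to 52.3%. The median position of the sites was 28.2% of the gene in TRRAP, 37.2% in PRKDC, 44.0% in ATM, 50.2% in ATR, 72.0% in MTOR and 72.5% in SMG1. Across 4630 genes of any length with at least 5 sites, members included, the median of this measure was 62.3% (quartiles 44.6% and 76.5%). TRRAP lay lower than all but 9.9% of these genes, and PRKDC lower than all but 17.3%. MTOR and SMG1, at 66.6% and 67.7% of the ranking, lay within the quartiles.

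At short range, the grouping of sites in the family had values close to those in other genes. Neighbouring sites at most 60 nt apart were joined into clusters, which gave 262 clusters with a mean of 1.55 sites, against 1.61 in the other genes with at least 5 sites. PRKDC had 108 clusters, SMG1 52, TRRAP 38, ATR 24, ATM 21 and MTOR 19. ATR thus had 4 sites fewer than ATM but 3 clusters more, since 41.2% of neighbours in ATM were at most 60 nt apart and 23.3% in ATR. Clusters with just 1 site were 57.4% of the total in PRKDC and 78.9% in TRRAP, with the other members between these values. Outside TRRAP the largest clusters had 5 sites, in PRKDC, and ATR had none above 2. The median distance between neighbouring sites was 130 nt in PRKDC, 201 nt in ATM, 256 nt in SMG1 and 686 nt in TRRAP, but 1665 nt in ATR and 1656 nt in MTOR.

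Pairs of sites 25 to 45 nt apart were more frequent than pairs 46 to 66 nt apart in every member, although most counts were small. PRKDC had 43 pairs in the nearer span and 15 in the farther one, SMG1 12 and 5, TRRAP 12 and 4, ATM 9 and 1, MTOR 3 and 2, and ATR 2 and 1. The sums were 81 and 28, a ratio of 2.89 (interval 1.89 to 4.43), which included the value of 3.53 (3.43 to 3.63) in the other genes with at least 5 sites. These intervals treat pairs as independent, although pairs can share a site. Between 20 and 60 nt, the most frequent distance was 36 nt both in the family, with 10 pairs, and in the other genes, with 1316. Clusters made of exactly 2 elements with centres 25 to 45 nt apart numbered 39 in the family, of which PRKDC had 18, SMG1 8, ATM and TRRAP 5 each, ATR 2 and MTOR 1.

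Pairs at longer distances were counted as well. The same site can enter several pairs, and counts outside PRKDC were small, so a difference between members was not tested. Pairs 140 to 180 nt apart numbered 48 in PRKDC against 34 pairs 60 to 100 nt apart. ATM had 8 and 0, SMG1 8 and 7, ATR 1 and 1, and TRRAP 2 and 5. MTOR had none in either span. Summed over the family these were 67 and 47, a ratio of 1.43, against 1.72 in the other genes, and 48 of the 67 came from PRKDC. Exon and intron limits were not used here, so the clusters were not placed relative to splice sites.

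**Figure D4:**
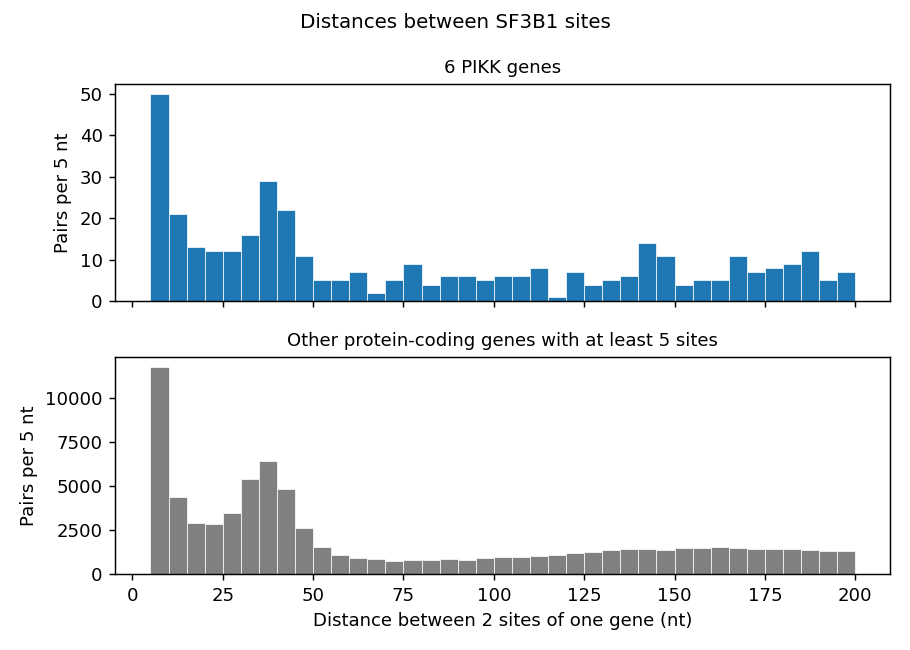
Number of pairs of SF3B1 sites in one gene by their distance, in bins of 5 nt, for the 6 PIKK genes (upper panel) and for 4624 other protein-coding genes with at least 5 sites (lower panel, different vertical scale). Both panels show many pairs at the shortest distances and a peak that includes 36 nt.

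Genes of the proteins that work with PIKKs were counted in the same way, in 8 lists of 75 genes in all. At least 1 site was found in 66 of them (88.0%) and at least 5 in 52 (69.3%), against 37.9% and 23.1% of protein-coding genes. No list gene had more sites than PRKDC, and 11 had more than MTOR. RNA abundance was not measured in these genes either. List medians below include genes without a site, unlike the medians given above over genes with a site.

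The PIKK proteins are folded and assembled with help from the TTT and R2TP chaperone complexes. Of 7 chaperone genes, 6 had a site, and the median over all 7 was 8 sites per gene. TTI1, a TTT subunit, had the most, 16, RUVBL1, an ATPase of R2TP, had 4, and TTI2 had 0. Of 7 genes for partners of DNA-PK in end joining, 6 had a site, and the median over all 7 was 4. XRCC5, which encodes the Ku80 subunit that loads the kinase on DNA ends, had 42 sites, LIG4, the ligase of the pathway, had 1, and NHEJ1 had 0.

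All 8 genes for activators and targets of ATM had a site, with a median of 20.5. MRE11, a nuclease of the complex that senses breaks, had 31 sites, close to the 35 of ATM, and H2AX, the histone that ATM phosphorylates at breaks, had 1 site in a gene of 1.6 kb. All 9 genes for activators and targets of ATR had a site, with a median of 7. TOPBP1, an activator of ATR, had 29 sites, ETAA1, another activator, had 2, and ATRIP, the obligate partner of ATR, also had 2.

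Of 10 genes of the mTOR complexes and their regulators, 7 had a site, and the median over all 10 was 6.5. RICTOR, the defining subunit of mTORC2, had 105 sites in 136.5 kb, against 27 in the longer MTOR. RPTOR, the defining subunit of mTORC1, had 8 sites in 421.5 kb. MAPKAP1, a subunit of mTORC2, had 4 sites, and AKT1S1, DEPTOR and PRR5 had 0. Of 9 genes around SMG1, 8 had a site, and the median over all 9 was 17. UPF1, the substrate of SMG1, had 25 sites, SMG6, the endonuclease of the pathway, had 3 in 243.9 kb, and SMG8, a subunit of the SMG1 complex, had 0.

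All 12 genes of the TRRAP complexes had a site, with a median of 9. EP400, a chromatin remodeller that shares a complex with TRRAP, had 90 sites, more than the 52 of TRRAP. KAT5, the acetyltransferase of that complex, had 9. DMAP1, KAT2A and SUPT3H had the fewest, 4 each, although SUPT3H spans 568.9 kb. Of 13 lipid kinase genes and regulators, the closest relatives outside the family, 10 had a site, and the median over all 13 was 6. PI4KA had 100 sites, PIK3CB 67 and PIK3CD 2, while PI4K2A, PIK3C2B and PIK3C2G had 0. Their median length was 92.0 kb, against 140.35 kb for the PIKK genes.

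**Figure D5:**
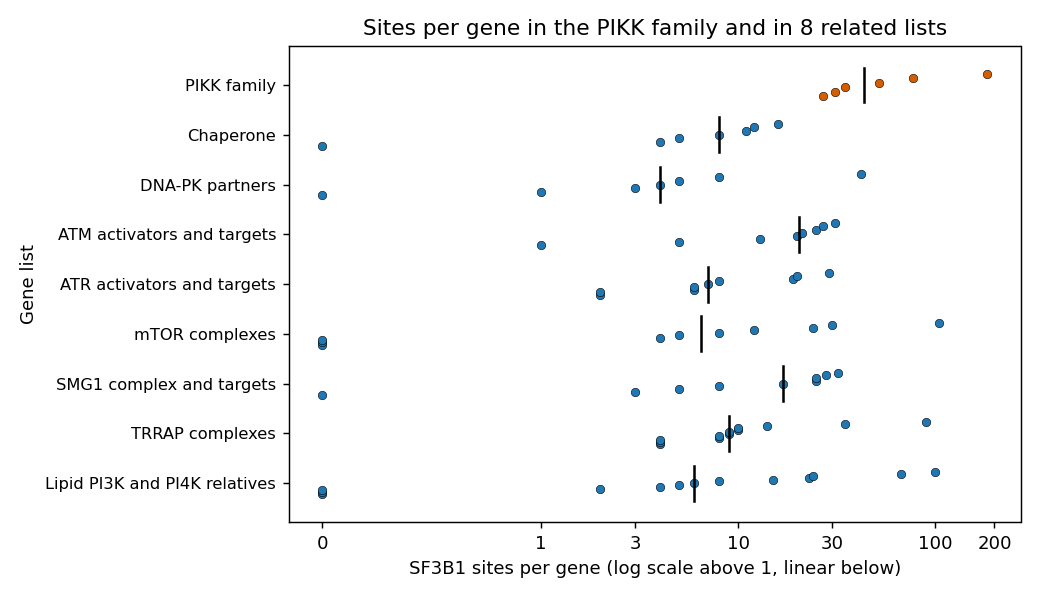
Number of SF3B1 sites per gene (horizontal axis, log scale above 1 and linear below) for the 6 PIKK genes and 8 lists of related genes, with 1 point per gene and a black line at each median. The PIKK genes lie between 27 and 184 sites, and the medians of the other lists between 4 and 20.5.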

How the data were processed

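According to the header of the deposited list, it holds merged 5 nt sites reproduced across replicates, and its score column is 0 in every row as deposited. The site caller is not given in the sources used here. The submitters' processing notes name STAR 2.7.3a and 2.6.1b, UMI-tools 1.0.0, bedtools 2.27.1 and FastQC 0.11.8, and the builds GRCh38 p10 and p12, without saying which was used where. Gene spans came from RefSeq (GRCh38 p14). Coordinates are 1-based, and the centre was taken as the position of a site. The strand of a gene came from a promoter table (4 of the 6 members), otherwise from the strand with more sites (PRKDC and TRRAP, so their sites do not test it). Where both existed in genes with at least 5 sites, they were equal for 3923 of 4010 genes. Sites in overlapping genes were counted in each gene on its strand.

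No significance test was made. The members, gene lists and distance spans were chosen with earlier results of these data known. The genes named are the members, the genes with the most, the fewest and 0 sites in each list, the nearest genes by length and sites, SMG1 copies, and genes inside member spans that hold sites; 1 gene that this rule names is not reported here. UPF1, RPTOR, KAT5, PIK3CB, MIR3609 and ANGPTL7 were named after their values were seen. Counting was tested on simulated data. SciPy 1.17.1 (intervals), NumPy 2.4.6 and pandas 2.3.3 were run under Python 3.11.15.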

Additional observations from a re-analysis of the deposited data

How the results depend on the processing

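Of 63 recalculations of 22 results, 61 stayed within the set limits, which were 1.5 times for counts and the 95% Wilson interval for shares and ratios. All 26 recounts of sites in member genes did so, including merged touching sites, 1 site per region number, and sites inside LOC105375818 or SCARNA28 left out. These last 2 were chosen after seeing the data. So were equal weights for the member genes, and 1 site per region number for the family share and the pair ratio. Some recounts could hardly exceed the limit by their construction. Taking the 5′ end of a site as its position changed no count. Leaving out sites in another protein-coding gene changed only ATM, from 35 to 34. The comparison with genes of the members' lengths was also added after seeing the data; among all 1077 genes with a site at least as long as SMG1, MTOR exceeded 82.5% in density and PRKDC 99.7%, with a median of 0.0424 sites per kb. The region number is a running number in the list that some neighbouring sites share. Leaving out SMG1 moved the family share of sites in the last 50% of the gene from 47.5% to 39.8%. Raising the minimum from 1 to 5 sites lowered the number of protein-coding genes counted from 7608 to 4630, by its construction. Alternatives that need exons or protein lengths were not run, since the tables used give neither. Omitting single replicates was not possible either. No paired analysis was possible because replicates are merged into 1 list. The smallest counts, such as pairs of sites in ATR and MTOR, are too few to order these genes.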

Other observations

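Some of the genes that work with the PIKKs were long and had few sites, and some were short and had many per kb. SUPT3H, a subunit gene of the SAGA acetyltransferase complex, spans 568.9 kb and had 4 sites, or 0.00703 per kb. XRCC4, which acts with the ligase in end joining, had 3 sites in 296.9 kb, and DEPTOR, an inhibitor of mTOR, had 0 in 177.2 kb. At the other end, PAXX, another end-joining factor, had 5 sites in a gene of 1.6 kb (3.22 per kb), PIH1D1, an R2TP subunit, had 8 in 5.5 kb (1.45 per kb) and MLST8, a subunit of both mTOR complexes, had 5 in 4.0 kb (1.25 per kb). UPF3A, a factor of nonsense-mediated decay, had 28 sites in 24.2 kb, or 1.16 per kb, above the 0.984 per kb of PRKDC. These genes were named after their values were seen, and RNA abundance was not measured. Other list genes were long and had many sites, such as RICTOR (105 in 136.5 kb) and EP400 (90 in 130.5 kb). The relation of length to number of sites over all list genes was not measured. Over all protein-coding genes with a site the median density was 0.199 per kb, against 0.0424 in those at least as long as SMG1.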
